A study of Homo sapiens with 4 samples.

Results

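Guanylate-binding proteins (GBPs) and MX proteins are large GTPases of the dynamin superfamily that cells make when interferons reach them. Interferon-gamma is the classical inducer of the GBPs, which assemble on cytosolic bacteria and on the vacuoles of intracellular pathogens. MX1 and MX2 are classical products of type I and type III interferons and block the replication of viruses. Interferons act on airway epithelial cells through receptors that signal by JAK kinases and STAT factors. The genes described here are GBP1, GBP2, GBP3, GBP4, GBP5, MX1, MX2 and IRGQ, the last a relative in the immunity-related GTPase family that has been linked to autophagy. These 8 genes were taken by symbol from a count table of 58735 gene identifiers.

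RNA-seq was run on wild-type cells of A549, a human lung adenocarcinoma line, that had been stained for surface ICAM1 and sorted by flow cytometry. There were 2 libraries of the ICAM1-high subset and 2 of the ICAM1-low subset, and the labels name no treatment for either. ICAM1 is an adhesion molecule that leukocyte integrins bind. Whether the libraries of a subset are separate cultures is not stated, so the p-values below reflect only the spread among these libraries, which may be technical.

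Library totals were 17638647 and 17271825 counts in ICAM1-high, against 16665362 and 16272591 in ICAM1-low. Levels are counts per 1e6 after TMM scaling (CPM), and 3 counts correspond to 0.161 to 0.196 CPM. ICAM1, which the sort selected for, averaged 113 ± 3.60 CPM in ICAM1-high, against 4.75 ± 0.202 CPM in ICAM1-low (SD, n = 2 each). A549 is known to have lost CDKN2A and MTAP. Reads of CDKN2A numbered 2223 in ICAM1-high and 0 in ICAM1-low, and reads of MTAP 922 in ICAM1-high and 9 in ICAM1-low, so the libraries labelled ICAM1-high depart from the named line at these genes. Both of them are affected, so no value can be given without them, and this feature cannot be told apart from the sort in any result that follows.

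Promoter windows from RefSeq (GRCh38.p14), 250 bases before to 50 bases after a start site, were matched for 5 of the 8 genes. GBP2, GBP5 and MX2 had no entry. The windows are shown because interferon-activated factors bind short elements there, the interferon-stimulated response element (ISRE) and the gamma-activated sequence (GAS). Both strands were searched for the ISRE core, which is GAAA, any 2 bases and GAAA, and for the GAS, TTCNNNGAA. Capitals mark the matches, and a match on the opposite strand appears as its reverse complement. GBP1 is at chr1:89065159-89065458, GBP3 at chr1:89022817-89023116, GBP4 at chr1:89198893-89199192 and IRGQ at chr19:43596085-43596384, all on the minus strand. MX1, the first of its 3 windows, is at chr21:41420308-41420607 on the plus strand.
GBP1: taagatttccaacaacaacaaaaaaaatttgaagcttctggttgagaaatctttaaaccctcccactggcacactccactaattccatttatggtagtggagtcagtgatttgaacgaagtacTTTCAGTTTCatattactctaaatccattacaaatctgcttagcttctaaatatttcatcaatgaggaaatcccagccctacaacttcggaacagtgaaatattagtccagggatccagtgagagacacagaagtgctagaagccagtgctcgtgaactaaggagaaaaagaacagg
GBP3: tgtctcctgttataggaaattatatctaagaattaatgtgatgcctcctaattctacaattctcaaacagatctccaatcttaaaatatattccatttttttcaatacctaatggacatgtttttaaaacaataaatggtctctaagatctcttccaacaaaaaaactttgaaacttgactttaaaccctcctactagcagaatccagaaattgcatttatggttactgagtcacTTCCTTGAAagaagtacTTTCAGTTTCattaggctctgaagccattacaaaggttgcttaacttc
GBP4: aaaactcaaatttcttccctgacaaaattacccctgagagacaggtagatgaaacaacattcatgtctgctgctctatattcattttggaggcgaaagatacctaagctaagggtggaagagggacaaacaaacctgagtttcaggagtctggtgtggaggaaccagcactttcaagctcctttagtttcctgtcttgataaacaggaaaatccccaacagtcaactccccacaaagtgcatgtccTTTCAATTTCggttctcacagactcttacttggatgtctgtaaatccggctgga
MX1: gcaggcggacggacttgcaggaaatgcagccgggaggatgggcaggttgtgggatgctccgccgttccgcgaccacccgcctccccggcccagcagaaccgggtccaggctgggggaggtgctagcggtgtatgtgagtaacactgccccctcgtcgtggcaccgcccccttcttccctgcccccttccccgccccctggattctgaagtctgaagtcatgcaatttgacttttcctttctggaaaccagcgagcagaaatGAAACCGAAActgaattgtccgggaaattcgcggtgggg
IRGQ: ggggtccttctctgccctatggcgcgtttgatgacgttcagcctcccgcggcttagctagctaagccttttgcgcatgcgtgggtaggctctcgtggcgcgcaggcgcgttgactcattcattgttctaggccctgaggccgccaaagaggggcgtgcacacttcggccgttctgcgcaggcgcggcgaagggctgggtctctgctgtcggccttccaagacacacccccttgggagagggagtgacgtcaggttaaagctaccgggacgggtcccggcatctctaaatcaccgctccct

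The ISRE core occurred once in each of the GBP1, GBP3, GBP4 and first MX1 windows, and its letters were not found in the IRGQ window. Of 35116 windows of that length in the whole table, 3.57% held it. With the start site as base 1, the match began at base -127 in GBP1, at base 3 in GBP3, at base -4 in GBP4 and at base 12 in MX1. It lay on the opposite strand in the 3 GBP windows and on the gene's own strand in MX1. The MX1 match was followed by CT, a longer form that 0.273% of windows held. GBP1 and GBP3 shared a run of 19 bases around the element, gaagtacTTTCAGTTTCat. GBP3 also held a GAS at bases -15 to -7, a sequence found in 7.66% of windows. Only the exact letters TTCNNNGAA were searched, so a GAS of another form, in GBP1 or elsewhere, would not be marked. Of the other MX1 windows, chr21:41431800-41432099 held an ISRE core and a GAS that overlap, and chr21:41425989-41426288 held neither. Among tested genes other than these 8 that had a window, 41.1% of the 455 with an ISRE core were called higher in ICAM1-high, beside 32.5% of all 11503. For the 996 with a GAS it was 34.3%, near that background.

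The comparison asks how these GTPase genes differ between cells with high and low surface ICAM1. All 5 GBP genes and both MX genes rose in ICAM1-high, by 2.28-fold (GBP3) to 30.4-fold (MX2) as ratios of mean CPM. IRGQ was slightly lower. Calls were common in these libraries, since 30.4% of the 16250 genes tested were called higher, 29.4% lower and 59.7% either way (edgeR quasi-likelihood test with Benjamini-Hochberg adjusted p under 0.05). All 7 that rose did so by at least 2-fold, which 10.8% of tested genes did, and 6 by at least 4-fold, which 4.57% did. In these 7 both ICAM1-high libraries lay above both ICAM1-low libraries, as in 40.1% of tested genes. The median log2 fold change of the 8 genes was 2.38, beside 0.01 over all genes tested. All 8 passed the filter on low counts, but GBP5 and MX2 passed through ICAM1-high alone, so the filter itself favoured a higher value for them. In bulk RNA, fewer cells that express a gene and less RNA per cell cannot be told apart.

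**Figure D1:**
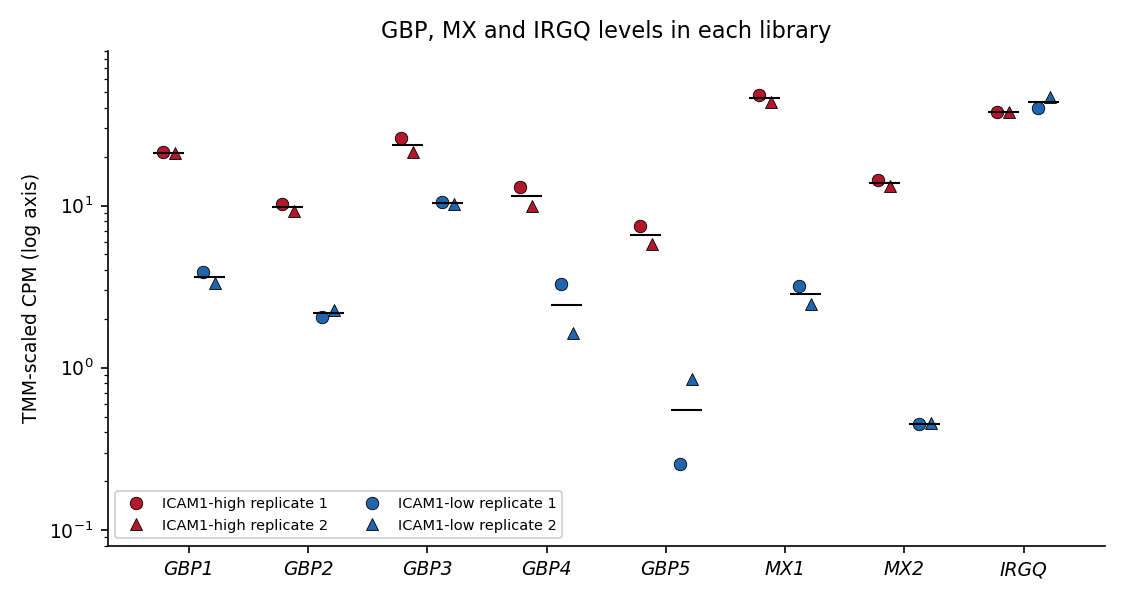
Level of each gene in each of the 4 libraries, in TMM-scaled CPM on a log axis. Red is ICAM1-high and blue ICAM1-low, circles and triangles are replicates 1 and 2, and bars are means of 2 libraries. For the 5 GBP and 2 MX genes the red points lie above the blue ones, and for IRGQ they lie just below.

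MX1 stops influenza and other viruses in the cytoplasm. It was at 48.1 and 43.5 CPM in the ICAM1-high libraries, against 3.20 and 2.48 CPM in the ICAM1-low libraries. Both ICAM1-high libraries were many times above both ICAM1-low libraries. The log2 fold change was 4.01 (standard error, SE, 0.13, edgeR adjusted p = 1.69e-38), and 1.74% of tested genes had one at least as large. The gene lies on chromosome 21 of GRCh38 (ENSG00000157601, 41420304 to 41459214, plus strand).

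MX2 holds back HIV-1 before its genome enters the nucleus, and its gene lies beside MX1 (ENSG00000183486, 41361943 to 41409390, plus strand). It was at 14.3 and 13.2 CPM in ICAM1-high, against 0.448 and 0.456 CPM in ICAM1-low. The ICAM1-low values rest on 7 counts in each library, 14 in all, with an exact 95% Poisson interval of 7.65 to 23.5 for counting error only. MX2 was thus scarce in ICAM1-low and readily detected in ICAM1-high. Its log2 fold change of 4.90 (SE 0.26, edgeR adjusted p = 7.45e-27) was the highest estimate of the 8, for a gene that passed the filter through ICAM1-high alone. Log2 ratios between single libraries ran from 4.85 to 5.00 for MX2 and from 3.76 to 4.28 for MX1, while the range of GBP5 (2.77 to 4.87) overlapped that of MX2. These ranges leave out counting error, and that of MX2 rests on 7 counts in each ICAM1-low library. They therefore do not rank MX2 above MX1.

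GBP5 carries a lipid anchor and lowers the activity of the protease furin. It was at 7.46 and 5.77 CPM in ICAM1-high, against 0.256 and 0.848 CPM in ICAM1-low. The ICAM1-low libraries held 4 and 13 counts, so the size of the fold depended on which of them was used. The log2 fold change was 3.57 (SE 0.32, edgeR adjusted p = 3.06e-15). It was 2.95 without ICAM1-low replicate 1 and 4.65 without ICAM1-low replicate 2.

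GBP1 binds lipopolysaccharide on cytosolic bacteria and brings in other GBPs. It was at 21.2 and 21.1 CPM in ICAM1-high, against 3.90 and 3.33 CPM in ICAM1-low. The libraries of a subset lay close together and the subsets far apart (log2 fold change 2.55, SE 0.15, edgeR adjusted p = 1.25e-24). GBP2, which like GBP5 acts on furin, was at 10.2 and 9.31 CPM in ICAM1-high, against 2.05 and 2.28 CPM in ICAM1-low. Its subsets did not overlap either (log2 fold change 2.17, SE 0.21, edgeR adjusted p = 8.24e-15).

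GBP4 joins the coat that GBP1 starts on bacteria. It was at 12.9 and 9.97 CPM in ICAM1-high, against 3.26 and 1.63 CPM in ICAM1-low. Its libraries spread more widely within a subset than those of GBP1, and the subsets still did not overlap (log2 fold change 2.22, SE 0.21, edgeR adjusted p = 9.34e-14). GBP3, another member of that coat, was at 25.9 and 21.5 CPM in ICAM1-high, against 10.6 and 10.2 CPM in ICAM1-low. Of the 5 GBPs it had the highest ICAM1-low level per kb of exon and the smallest rise (log2 fold change 1.19, SE 0.12, edgeR adjusted p = 3.77e-14). Its single-library log2 ratios, 1.02 to 1.34, lay below those of the other 4 GBPs. The range of GBP1 (2.43 to 2.68) lay above that of GBP2 (2.03 to 2.32), and that of GBP4 (1.61 to 2.99) covered both. Such ranges leave out counting error, and GBP2 had only 32 and 35 counts in ICAM1-low. The order of GBP1, GBP2 and GBP4 was not tested.

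IRGQ was at 37.8 and 37.8 CPM in ICAM1-high, against 39.7 and 46.7 CPM in ICAM1-low. The ICAM1-high libraries were almost equal and lay just below the lower ICAM1-low library. The log2 fold change of -0.19 (SE 0.08) passed the threshold with edgeR adjusted p = 0.0302. The call was not made by DESeq2 (-0.20, adjusted p = 0.151), by edgeR with scaling by library size alone (-0.02, adjusted p = 0.846) or by edgeR without ICAM1-low replicate 2 (-0.08, adjusted p = 0.558). Both ICAM1-high libraries lay below both ICAM1-low libraries in 38.3% of tested genes.

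Within the ICAM1-high pair, the 7 genes that rose were each higher in replicate 1 than in replicate 2. The difference ran from 1.01-fold (GBP1, 396 and 387 counts) to 1.30-fold (GBP4). Of all tested genes 49.5% were higher in replicate 1. The pattern was not particular to these genes. Of the antiviral interferon-stimulated genes described below, all but IFITM1, BST2 and EPSTI1 were also higher in replicate 1. These replicate differences were not tested. For IRGQ the ratio was 0.998. In the ICAM1-low pair the ratio of replicate 1 to replicate 2 ran from 0.302 (GBP5) to 2.001 (GBP4), with both directions present.

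Levels per kb of annotated exon allow only a rough comparison between genes, because the lengths are unions over all annotated transcripts. The order depends on them. By CPM alone MX1 (45.8) lay above GBP3 (23.7) in ICAM1-high, with exon lengths of 8616 and 4297 bases. In ICAM1-high the order was GBP3 at 5.51 ± 0.734, MX1 at 5.31 ± 0.379, GBP1 at 4.24 ± 0.0246, IRGQ at 3.83 ± 0.00516, GBP4 at 1.87 ± 0.342, GBP2 at 1.55 ± 0.0995, MX2 at 1.05 ± 0.0622 and GBP5 at 0.812 ± 0.146 CPM per kb (SD, n = 2). Of neighbours in that order, only GBP3 and MX1 overlapped in their libraries. GBP4 and GBP2 nearly met, at 1.626 in the lower GBP4 library and 1.624 in the higher GBP2 library, and are not ranked by this. In ICAM1-low the order was IRGQ at 4.38 ± 0.504, GBP3 at 2.42 ± 0.0521, GBP1 at 0.724 ± 0.0816, GBP4 at 0.399 ± 0.188, GBP2 at 0.345 ± 0.0265, MX1 at 0.329 ± 0.0591, GBP5 at 0.0678 ± 0.0514 and MX2 at 0.0346 ± 4.71e-04 CPM per kb (SD, n = 2). There GBP4 overlapped GBP2, GBP2 overlapped MX1, and GBP5 overlapped MX2.

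The make-up of the GBP pool also differed. The 5 GBPs summed to 14.9 and 13.03 CPM per kb in ICAM1-high, against 4.13 and 3.78 CPM per kb in ICAM1-low. GBP3 supplied 40.4% and 38.3% of the sum in ICAM1-high, against 59.5% and 63.0% in ICAM1-low. It was the leading GBP in all 4 libraries, with a smaller share in both ICAM1-high libraries. GBP1 supplied 28.5% and 32.4% in ICAM1-high, against 18.9% and 17.6% in ICAM1-low. GBP5 supplied 6.13% and 5.44% in ICAM1-high, against 0.761% and 2.75% in ICAM1-low. GBP2 supplied 10.9% and 11.4% in ICAM1-high, against 7.90% and 9.61% in ICAM1-low, and GBP4 14.1% and 12.5% against 12.9% and 7.03%. Only the shares of GBP4 overlapped between the subsets, and none of the shares was tested. Separation was common: by CPM, both ICAM1-high libraries lay above both ICAM1-low libraries in 40.1% of tested genes and below them in 38.3%. Exon lengths are unions over annotated transcripts, which need not be those the cells use.

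**Figure D2:**
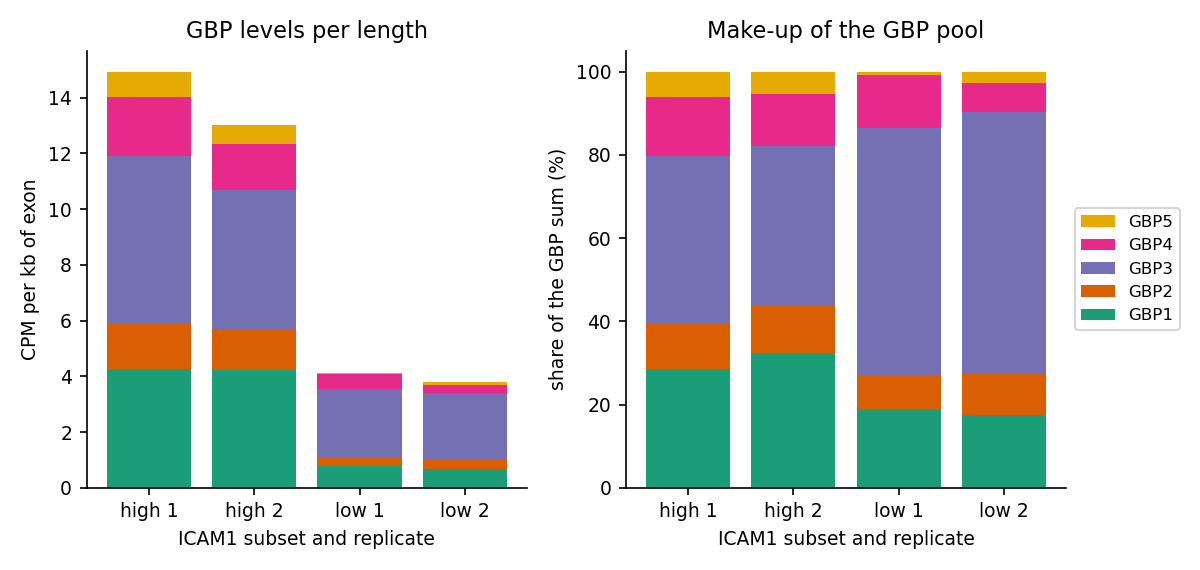
Left, the 5 GBP genes stacked by level in CPM per kb of exon in each library; right, the same levels as percent of their sum. GBP3 is the largest share in every library, and GBP1 is a larger share in ICAM1-high (28.5% and 32.4%) than in ICAM1-low (18.9% and 17.6%).

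GBP genes are close paralogs, so counting rules could split their reads. Of all 50-base windows of a gene's annotated transcripts, the share also found in a transcript of another gene was 9.62% for GBP1, 10.2% for GBP2, 4.76% for GBP3, 5.92% for GBP4 and 3.12% for GBP5. For MX1 it was 1.94% and for MX2 0.361%. At 100 bases it was 8.42% for GBP2, all of it shared with GBP7, and at most 1.497% (GBP5) for the others. GBP7, whose exons overlap GBP2 on the same strand, had 2 and 3 counts in ICAM1-high, against 0 and 1 in ICAM1-low. A gene antisense to MX1 had 3 and 2 counts in ICAM1-high, against 0 in both ICAM1-low libraries, and the strand setting of the counting is unknown.

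The GBP genes form 1 cluster on the minus strand of chromosome 1 (GRCh38), in the order GBP3 (ENSG00000117226, 89006666 to 89022894), GBP1 (ENSG00000117228, 89052319 to 89065360), GBP2 (ENSG00000162645, 89106132 to 89150456), GBP4 (ENSG00000162654, 89181148 to 89198932) and GBP5 (ENSG00000154451, 89258950 to 89272804). GBP6, in the same region, had 0 counts in all 4 libraries. The pseudogene GBP1P1 had 26 counts in ICAM1-high, against 1 in ICAM1-low, and IRGM, an autophagy-linked GTPase, had 4 in each subset. None of the 5 further GBP and immunity-related GTPase genes listed was abundant enough to test.

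Protein-coding genes within 200 kb of the 8 genes numbered 24, of which 16 could be tested. Of these, 5 rose, 5 fell and 6 were not called, near the shares of all tested genes (30.4% higher and 29.4% lower). Most of the 16 lie around IRGQ, so these counts describe mainly its surroundings. Beside GBP3, RBMXL1, an RNA-binding protein gene, rose by 0.79 on the log2 scale (SE 0.15) and KYAT3, a transaminase gene, fell by 0.34 (SE 0.11). Near MX2, BACE2, a protease gene, rose by 2.04 (SE 0.08), while FAM3B and TMPRSS2, which flank the MX pair, had 1 count each over all libraries. Near IRGQ (ENSG00000167378, 43584369 to 43596135, chromosome 19, minus strand), LYPD3 rose by 5.18 (SE 0.35) after passing the filter through ICAM1-high alone, and SMG9, of RNA decay, fell by 1.08 (SE 0.06). XRCC1, a DNA repair gene next to IRGQ, was at -0.18 and was not called.

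**Figure D3:**
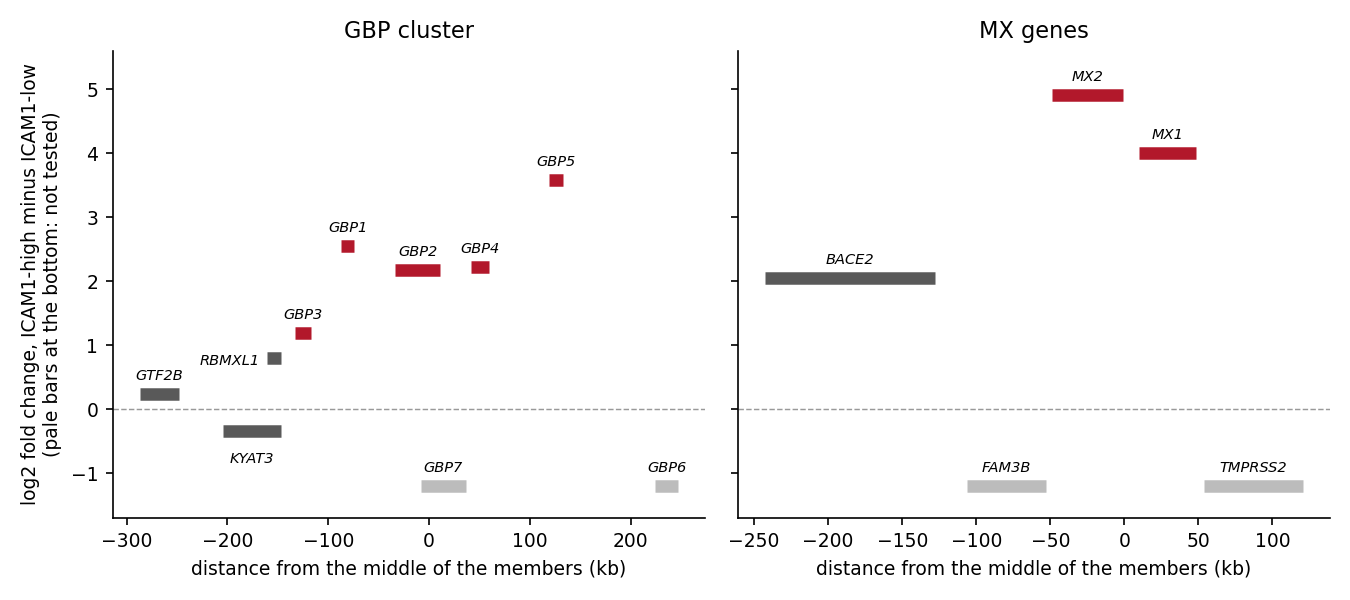
Log2 fold change, ICAM1-high minus ICAM1-low, against distance in kb from the middle of the GBP cluster (left) and of the MX pair (right). Red bars are the GBP and MX genes, dark grey bars are other tested protein-coding genes, and pale bars at the bottom are genes too low to test. The 5 GBP genes lie between 1.19 and 3.57, and the 3 tested genes beside them between -0.34 and 0.79.

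The signals that induce these genes were read in the same libraries. Among interferon ligands, IFNL1, of type III, averaged 37.8 ± 0.828 CPM in ICAM1-high, against 26.1 ± 0.0354 CPM in ICAM1-low, and rose (log2 fold change 0.53, SE 0.08, edgeR adjusted p = 1.20e-07). IFNB1, of type I, averaged 4.46 ± 0.0681 CPM in ICAM1-high, against 3.52 ± 0.363 CPM in ICAM1-low, and did not pass the test (edgeR adjusted p = 0.185). IFNG, which encodes interferon-gamma, had 0 counts in all 4 libraries. Of 9 ligands, 5 could be tested and 1 rose, whereas 4 did with scaling by library size alone.

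Of 6 receptor genes, IFNGR2, a chain of the interferon-gamma receptor, fell by 0.25 (SE 0.08, edgeR adjusted p = 0.00867), and 5 were not called. That call was lost with scaling by library size alone (-0.07, edgeR adjusted p = 0.461), under which IFNAR1 and IFNGR1 were called higher. IFNAR1, of the type I receptor, averaged 61.1 ± 2.69 CPM in ICAM1-high, against 57.8 ± 2.38 CPM in ICAM1-low.

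Below the receptors, 6 of 10 tested JAK, STAT and IRF genes rose and 2 fell, with a median log2 fold change of 0.46. IRF7, which amplifies interferon production, rose by 1.99 (SE 0.12). STAT2, a factor of type I and type III signalling, rose by 1.07 (SE 0.08). JAK1, a kinase of these receptors, fell by 0.66 (SE 0.05). IRF9, which binds the ISRE together with STAT2, averaged 2.78 ± 0.697 CPM in ICAM1-high, against 2.03 ± 0.475 CPM in ICAM1-low, and was not called. Of 5 tested brakes on the pathway 3 rose and 1 fell, led by USP18, which blocks the type I receptor and rose by 1.70 (SE 0.12). With scaling by library size alone the lower calls of IRF3, a factor that starts interferon production, and of PTPN2, a phosphatase among the brakes, were lost (edgeR adjusted p = 0.178 and 0.236).

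Other interferon-induced genes went the same way as the GBP and MX genes. All 22 antiviral interferon-stimulated genes rose, with a median log2 fold change of 1.63, and 3 of them passed the filter through ICAM1-high alone. Among them IFI6 rose by 3.14, BST2, which tethers budding virus and passed through ICAM1-high alone, by 6.45, IFITM1, which blocks virus entry, by 5.74 and IFIT1, which binds viral RNA, by 1.78. Of 21 genes known for induction by interferon-gamma, 19 could be tested and all 19 rose, with a median of 1.41, and 4 of them passed through ICAM1-high alone. APOL1 rose by 2.16, UBE2L6, of ISG15 conjugation, by 1.41, NLRC5, an activator of MHC class I genes, by 1.93 and APOL2 by 1.28. CXCL9, a chemokine of that list, had 0 counts in ICAM1-high, against 2 in ICAM1-low.

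Large GTPases of related structure that are not known as interferon-induced were spread on both sides of 0. Of 14 dynamin, atlastin, mitofusin, OPA1 and EHD genes 6 rose and 3 fell, with a median log2 fold change of 0.11. DNM2, the ubiquitous dynamin, rose by 0.63 (SE 0.05) and MFN2, of mitochondrial fusion, by 0.42 (SE 0.05). ATL2, an atlastin of the endoplasmic reticulum, fell by 0.40 (SE 0.05). With scaling by library size alone 9 of the 14 rose and 2 fell. DNM3 rose by 2.60 (SE 0.36) on 132 counts in ICAM1-high, against 18 in ICAM1-low, and passed the filter through ICAM1-high alone.

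**Figure D4:**
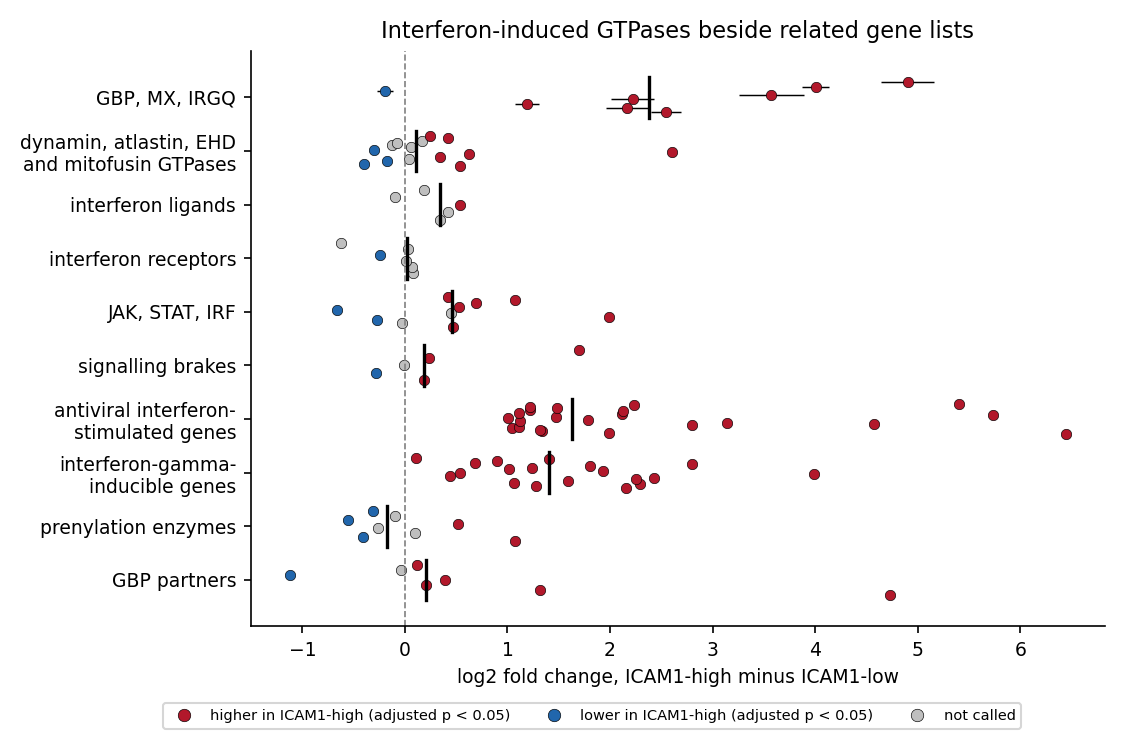
Log2 fold change, ICAM1-high minus ICAM1-low, of every tested gene in each list, with the list median as a vertical bar and, in the top line, SE as horizontal bars. Red is called higher, blue called lower and grey not called. All points of both lists of interferon-stimulated genes lie right of 0, and so do the GBP and MX genes.

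Enzymes of the prenylation pathway, which gives GBP1, GBP2 and GBP5 their lipid anchors, did not share a direction. Of 8 such genes 2 rose and 3 fell, with a median log2 fold change of -0.18, beside 30.4% higher and 29.4% lower over all tested genes. With scaling by library size alone 2 rose and 3 fell, with a median of -0.006. FDPS, which makes the farnesyl precursor, rose by 1.07 (SE 0.07) and the methyltransferase gene ICMT by 0.51 (SE 0.05). PGGT1B, a subunit of the enzyme that adds the longer lipid, fell by 0.56 (SE 0.08), and the protease gene ZMPSTE24 fell by 0.31 (SE 0.05).

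Of 10 genes whose products act with GBPs, 7 could be tested, of which 5 rose and 1 fell, with a median log2 fold change of 0.20. CASP4, the caspase that senses lipopolysaccharide on the GBP coat, averaged 19.2 ± 0.0860 CPM in ICAM1-high, against 7.68 ± 1.17 CPM in ICAM1-low (log2 fold change 1.32, SE 0.13). CASP1, the inflammasome caspase, had 292 counts in ICAM1-high, against 9 in ICAM1-low, and passed the filter through ICAM1-high alone. PIM1, a kinase that phosphorylates GBP1, fell by 1.12 (SE 0.09), and FURIN rose by 0.20 (SE 0.05). Without ICAM1-low replicate 1, 3 of these genes rose instead of 5.

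By the root mean square distance of centred log2 CPM over the 4 libraries, the 4 genes most like MX1 among 10652 candidates were HOXC10, a homeobox gene (0.0734), LCN2, a siderophore-binding protein gene (0.103), COL5A1, a collagen gene (0.136) and GALNT6, a glycosyltransferase gene (0.143). Their log2 fold changes ran from 3.86 (COL5A1) to 4.30 (LCN2). Closeness to the fold change of MX1 follows from how they were picked, since the 4 libraries differ mainly by subset. This likeness is therefore no separate result.

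Markers of other cells that can express these GTPases were read as well. Of 14 leukocyte markers 3 could be tested, of which 1 rose and 1 fell, and the list summed to 25.8 to 27.0 CPM in ICAM1-high and 19.3 to 19.9 CPM in ICAM1-low. The defining leukocyte genes PTPRC, CD3E, CD3D, MS4A1 and FCGR3A had 0 counts in all 4 libraries. Of 14 endothelial markers 6 could be tested, of which 4 rose, 2 of them (ERG and CDH5) after passing the filter through ICAM1-high alone, and 1 fell; the list summed to 52.3 to 57.0 CPM in ICAM1-high and 37.1 to 40.4 CPM in ICAM1-low. ERG, an endothelial transcription factor, had 89 counts in ICAM1-high, against 0 in ICAM1-low. PECAM1 rose by 2.09 (SE 0.33) and ENG by 2.29 (SE 0.16). EGFL7, the most abundant of the list, averaged 25.8 ± 0.499 CPM in ICAM1-high, against 29.4 ± 2.91 CPM in ICAM1-low, and was not called. VWF had 0 and 5 counts in the ICAM1-high libraries and 0 in both ICAM1-low libraries. Of 14 fibroblast markers 8 could be tested, of which 6 rose, and 5 of the 8 (LUM, PDGFRB and FAP among those that rose) passed the filter through ICAM1-high alone. The list summed to 80.5 to 91.9 CPM in ICAM1-high and 48.5 to 52.0 CPM in ICAM1-low. COL1A1, a collagen, averaged 28.5 ± 2.06 CPM in ICAM1-high, against 4.07 ± 0.329 CPM in ICAM1-low, and rose by 2.81 (SE 0.13). LUM had 99 counts in ICAM1-high, against 8 in ICAM1-low, and FAP 42 in ICAM1-high, against 1 in ICAM1-low. COL1A2 had 0 counts in ICAM1-high, against 1 in ICAM1-low, COL3A1 0 against 2, and DCN 1 against 2. PDGFRA was not called (log2 fold change -0.03), while POSTN and DPT had 0 counts in all libraries. Of 6 epithelial markers 5 rose and 1 fell, with KRT8, a keratin, at 3074 ± 85.3 CPM in ICAM1-high, against 1289.9 ± 31.7 CPM in ICAM1-low, and EPCAM at 2.79 ± 0.985 CPM in ICAM1-high, against 4.32 ± 0.489 CPM in ICAM1-low. With scaling by library size alone the lower calls in the leukocyte, endothelial and epithelial lists (ITGAM, ESAM and EPCAM) were lost. The part of these markers in the GBP and MX differences was not tested.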

How the data were processed

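Whole-number read counts per gene, not normalized, were deposited by the authors in 1 table, where each library has its own column. The submitters' processing notes name FastQC 0.10.1 and GRCh38. No source used here names the aligner, the counting program or its strand setting. Per the labels' protocols, RNA was taken up in Trizol and sequenced as SMARTer mRNA libraries.

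Genes passing edgeR's expression filter (minimum count 10, minimum total 15) were fitted in edgeR 4.0.16 (R 4.3.3) with TMM scaling and a robust quasi-likelihood test without covariates, adjusted by Benjamini-Hochberg over all 16250 genes tested. A positive log2 fold change means higher in ICAM1-high, and its SE is its size over the root of the F statistic. Positions and exon lengths are from GENCODE release 29, in which all 58735 identifiers were found, and promoters from RefSeq. The fit was tested on simulated data first.

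The 8 genes and the lists were chosen with earlier results of these data known. From each list up to 4 called genes with the smallest adjusted p are named, except 1 that is not reported here; neighbours, markers and other genes given as not called or at 0 were picked after their values were seen. Alternatives were other scalings, filters and thresholds, DESeq2 1.42.0, limma-voom (limma 3.58.1), a replicate block and leaving out each library.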

Additional observations from a re-analysis of the deposited data

How the results depend on the processing

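The 5 GBP and 2 MX genes were called higher in ICAM1-high in each of 11 refits (other scalings and filters, DESeq2, limma-voom, the replicate block and each library left out), with adjusted p of at most 2.10e-08 (GBP5). Their log2 fold changes ranged from 1.04 to 1.36 for GBP3 and from 4.83 to 5.08 for MX2, the smallest and the largest. GBP5 and MX2 passed the main filter through ICAM1-high alone. All refits draw on the same libraries, so they show dependence on processing only and are no separate support. Of the 8 genes, 0 were called lower with scaling by library size alone, DESeq2, adjusted p under 0.01 or a 1.5-fold minimum, and 0 to 1 with a library left out; the cause was not tested. Scaling by library size alone moved the median over all genes by 0.17 and made 68.3% of calls higher in place of 50.8%, with 3124 genes lower, 4 ligands higher and 2 receptors higher. A 1.5-fold minimum left 2840 genes higher and 1963 lower, and counts higher of 2 large GTPases, 0 ligands, 3 JAK, STAT and IRF genes, 1 brake, 1 prenylation enzyme and 2 GBP partners. With no filter 1 further GBP or immunity-related GTPase gene was higher, and with a library left out 0 to 1; GBP partners higher then ranged from 3 to 5.

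Deviations of same-numbered libraries from their subset means correlated at r = 0.04 over 16250 genes. With so few libraries, this value cannot show whether same-numbered libraries shared a culture or a sort. With the replicate block, 4976 genes were higher and 4836 lower, and 7 of the 8 genes were higher and 1 lower. Of 182 recomputed counts of calls, 161 stayed within 1.5 times the reported count. Depth limits MX2 and GBP5, at 14 and 17 counts in ICAM1-low.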
